A study of Mus musculus with 13 samples.

Results

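The butyrophilin-like genes Btnl1, Btnl2, Btnl4 and Btnl6 and the transcription factor genes Hnf4a, Hnf4g, Cdx1 and Cdx2 were measured by single-cell RNA sequencing (scRNA-seq) in colon tumors and adjacent mucosa of mice. These 8 genes were chosen by symbol from the 32285 genes of the count tables, and all 8 were found there. They were measured in 32928 epithelial cells, 17572 from 10 colon tumors and 15356 from 3 samples of adjacent mucosa, and are given beside the share of T cells with Trdc RNA in the same 13 libraries. All 8 genes passed the filter on low counts in the epithelial cells.

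All animals were C57BL/6J mice of the genotype ApcMin/+; p16cis/cis, which carry a germline Apc mutation together with an epimutation of p16, and all received the supplemented diet, which adds extra folic acid, vitamin B12, choline and betaine. No mouse without these alleles and no mouse on the control diet was among the libraries, so genotype and diet were shared by tumor and mucosa. Mouse A was 24 weeks old and gave 4 tumors (tumors 5 to 8) and mucosa 2, mouse B was 23 weeks old and gave 2 tumors (9 and 10) and mucosa 3, and mouse C was 20 weeks old and gave 4 tumors (1 to 4) and mucosa 1. Mucosa was dissociated with EDTA and TrypLE and tumors with a tumor dissociation kit, so tissue and dissociation cannot be told apart in any comparison between them.

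Butyrophilin-like proteins are membrane proteins of the immunoglobulin superfamily, and in the mouse intestine Btnl1 and Btnl6 act as a pair on the surface of enterocytes that maintains intraepithelial gamma delta T cells carrying the Tcrg-V7 chain. HNF4A and HNF4G are nuclear receptors that act together in enterocyte differentiation, brush border formation and lipid handling, and CDX1 and CDX2 are homeobox factors that set intestinal identity. These factors have been tied to the transcription of butyrophilin-like genes in gut epithelium, and CDX2 is known as a factor often lowered in colon cancer.

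The 4 Btnl genes lie together on chromosome 17, within 162531 bases of the mouse genome (GRCm38). Their promoters are shown because HNF4 and CDX factors, which bind DNA, stand beside them here, and because Btnl4 and Btnl6 are nearly identical there. RefSeq gave a window for 6 of the 8 genes, and the 250 bases before each RefSeq start site are printed 5′ to 3′ on the strand of the gene (GRCm38.p6). Whether the 4 windows overlap annotated exons is not shown here. In the windows of Btnl1 and Btnl2, capitals mark the letters CAAAGTCC, the core of the HNF4 motif.

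Btnl1 (chr17:34376882-34377131, plus strand): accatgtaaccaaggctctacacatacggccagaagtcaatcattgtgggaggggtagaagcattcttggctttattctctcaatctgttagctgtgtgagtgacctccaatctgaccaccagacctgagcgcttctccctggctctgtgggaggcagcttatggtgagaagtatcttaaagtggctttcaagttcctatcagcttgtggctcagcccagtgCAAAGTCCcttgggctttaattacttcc

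Btnl2 (chr17:34354572-34354821, plus strand): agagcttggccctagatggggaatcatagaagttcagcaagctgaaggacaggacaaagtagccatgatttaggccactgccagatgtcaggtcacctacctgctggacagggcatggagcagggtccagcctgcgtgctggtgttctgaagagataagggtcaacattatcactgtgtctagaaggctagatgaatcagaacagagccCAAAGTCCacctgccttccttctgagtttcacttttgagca

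In the windows of Btnl4 and Btnl6, capitals mark stretches of 20 or more bases that both share.

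Btnl4 (chr17:34475938-34476187, minus strand): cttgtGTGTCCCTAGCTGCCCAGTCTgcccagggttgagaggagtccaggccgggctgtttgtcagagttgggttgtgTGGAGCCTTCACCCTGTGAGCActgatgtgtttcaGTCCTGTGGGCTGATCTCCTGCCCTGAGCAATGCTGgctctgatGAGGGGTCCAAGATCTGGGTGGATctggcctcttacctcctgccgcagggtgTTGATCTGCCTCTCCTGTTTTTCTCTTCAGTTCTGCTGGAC

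Btnl6 (chr17:34517353-34517602, minus strand): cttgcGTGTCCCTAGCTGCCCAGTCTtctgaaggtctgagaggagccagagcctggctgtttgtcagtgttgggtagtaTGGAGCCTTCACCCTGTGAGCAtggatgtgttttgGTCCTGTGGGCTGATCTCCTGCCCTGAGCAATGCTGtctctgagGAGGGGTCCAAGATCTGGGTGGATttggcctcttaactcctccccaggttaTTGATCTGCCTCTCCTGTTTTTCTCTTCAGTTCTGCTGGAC

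Both strands of the windows were searched for fixed letters. The full HNF4 motif CAAAGTCCA was found in Btnl2 alone among the windows of these genes, from 41 to 33 bases before the start, and in 0.384% of 32851 RefSeq windows of the same length. Its first 8 letters CAAAGTCC, which overlap the full motif, were found in Btnl1, from 28 to 21 bases before the start, and in Btnl2, and in 1.2% of all windows. The CDX letters TTTATNG were in none of the windows of these genes, which says only that these letters are not there, and in 9.81% of all windows. The windows of Btnl4 and Btnl6 were identical in 90.5% of aligned positions, with 5 shared stretches of 20 or more bases and the longest of 41, against 50.4% for Btnl1 and Btnl4 and 51.1% for Btnl1 and Btnl6. The RefSeq start of Btnl4 lies 1381 bases inside the GENCODE gene, so its window is not the sequence before the GENCODE start.

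The transcripts of Btnl4 and Btnl6 share an exact run of 69 bases within their last 500, where the 3′ reads of this assay fall, while no other pair of the 4 genes shares more than 19 bases anywhere. Counts could therefore be split between Btnl4 and Btnl6 or lost, and values that separate these 2 genes are uncertain.

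Total counts were 57221300 to 93157039 unique molecular identifiers (UMIs, counted RNA molecules) per tumor library and 84883382 to 116133079 per mucosa library, of which epithelial cells held 22536166 to 39576201 and 61374175 to 80994382. Levels in CPM are the UMIs of a gene scaled by all UMIs of the cells summed, here the epithelial cells of a library unless another set is named. Epcam, which marks epithelium, stood at 2019 to 2980 CPM in the tumors and 2440 to 2748 CPM in mucosa in these cells. Of all epithelial cells 94.3% each held at least 3 of Epcam, Krt8, Krt18, Krt19, Cldn7 and Cdh1 and no UMI of the leukocyte gene Ptprc. Of 107076 barcode sequences among the retained cells, 1407 (1.31%) occurred in more than 1 library. The 7 libraries labelled female carried Y-linked RNA like the other 6, with a summed Y-linked level of 104 to 129 CPM over all 13. The sex label was therefore used only to leave those 7 out in an alternative fit. A lower level in such a sum can come from fewer cells of a kind or from less RNA per cell, and these cannot be told apart there.

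Btnl1, a subunit of the pair that engages Tcrg-V7 cells, showed the largest fitted fall of the 8 genes over all 13 libraries. In mouse C alone Cdx2 fell further, at 29.95 times as high in mucosa as in the mean tumor against 10.9 times for Btnl1. It stood at 4.90, 24.5 and 23.6 CPM in mucosa 1, 2 and 3, against a lowest value of 0.190, a median of 0.526 and a highest value of 0.840 CPM over the 10 tumors. Every tumor lay below every mucosa library, and mucosa 1 was well below the other mucosa samples. By edgeR's quasi-likelihood test the log2 fold change (tumor minus mucosa) was -5.43 ± 0.39 (SE, n = 10 and 3; adjusted p = 2.51e-07), a level 43.0-fold lower in tumors with a 95% interval of 25.3 to 73.1. The tumors held 142 Btnl1 UMIs in all, 5 to 25 per tumor, against 4053 in mucosa.

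Btnl6, the partner of Btnl1, stood at 3.63, 10.8 and 10.2 CPM in mucosa 1, 2 and 3, and at 0.217 to 1.68 CPM with a median of 0.702 in the tumors. Btnl4, a closely related gene, stood at 8.72, 13.6 and 14.1 CPM in mucosa and at 0.910 to 3.89 CPM with a median of 1.58 in the tumors. In both genes the groups did not overlap, mucosa 1 was the lowest mucosa sample, and tumors 6 and 10 were among the 3 highest tumors. The fold changes were -3.59 ± 0.51 for Btnl6 (adjusted p = 4.26e-05; 12.0-fold lower) and -2.92 ± 0.36 for Btnl4 (adjusted p = 1.31e-05; 7.58-fold lower) by the same edgeR test.

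Btnl2, a butyrophilin-like gene known to restrain T cell activation, was the least counted of the 4. It stood at 1.08, 2.38 and 2.32 CPM in mucosa and at 0.0958 to 0.519 CPM with a median of 0.265 in the tumors, where the median tumor held 8 UMIs. The groups did not overlap, and the test called it lower in tumors. The 2 largest neutrophil clusters stood at 0.546 and 0.798 CPM of Btnl2, above the value of every tumor's epithelial cells. A Btnl2 UMI was found in 0.186% of tumor neutrophils at a median of 2599 UMIs and in 0.0912% of tumor epithelial cells thinned to 2000 UMIs. Over all tumor epithelial cells Btnl2 was thus at or under the level of neutrophils, so no expression is read from these sums and no fold is given. Tumor absorptive-like cells, which held 37 of the 83 tumor UMIs, stood higher, at 1.57 to 12.7 CPM.

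Among the transcription factors, Cdx2 had the largest fall and Hnf4a the smallest. Cdx2 stood at 168, 214 and 223 CPM in mucosa 1, 2 and 3 and at 2.69 to 43.3 CPM with a median of 5.46 in the tumors. Tumor 6 at 43.3 CPM stood far above the next tumor at 8.72 CPM and still far below every mucosa sample. The fold change was -4.75 ± 0.61 (edgeR, adjusted p = 2.13e-05), or 26.8-fold lower with a 95% interval of 11.7 to 61.8. It was -5.46 without tumor 6 and -5.34 without mouse A, to which tumor 6 belongs. Cdx1, its paralog, stood at 182, 200 and 164 CPM in mucosa and at 51.5 to 146 CPM with a median of 76.5 in the tumors. These groups did not overlap either, with tumor 10 highest at 146 CPM, and the fold change was -1.46 ± 0.25 (edgeR, adjusted p = 2.27e-04; 2.75-fold lower).

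Hnf4g, the HNF4 paralog restricted to the gut and a few other tissues, stood at 24.4, 16.9 and 17.3 CPM in mucosa and at 5.07 to 11.7 CPM with a median of 7.37 in the tumors. The groups did not overlap, and mucosa 1, the lowest sample for the Btnl genes, was the highest for Hnf4g. Its fold change was -1.63 ± 0.24 (edgeR, adjusted p = 5.06e-05; 3.1-fold lower). Hnf4a stood at 69.4, 78.3 and 103 CPM in mucosa and at 47.2 to 83.2 CPM with a median of 60.0 in the tumors. These groups overlapped, since 8 of 10 tumors lay below the lowest mucosa sample while tumor 3 at 76.7 and tumor 10 at 83.2 CPM lay above it. The fold change of Hnf4a was -0.70 ± 0.17 (edgeR, adjusted p = 0.00278; 1.63-fold lower).

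**Figure D1:**
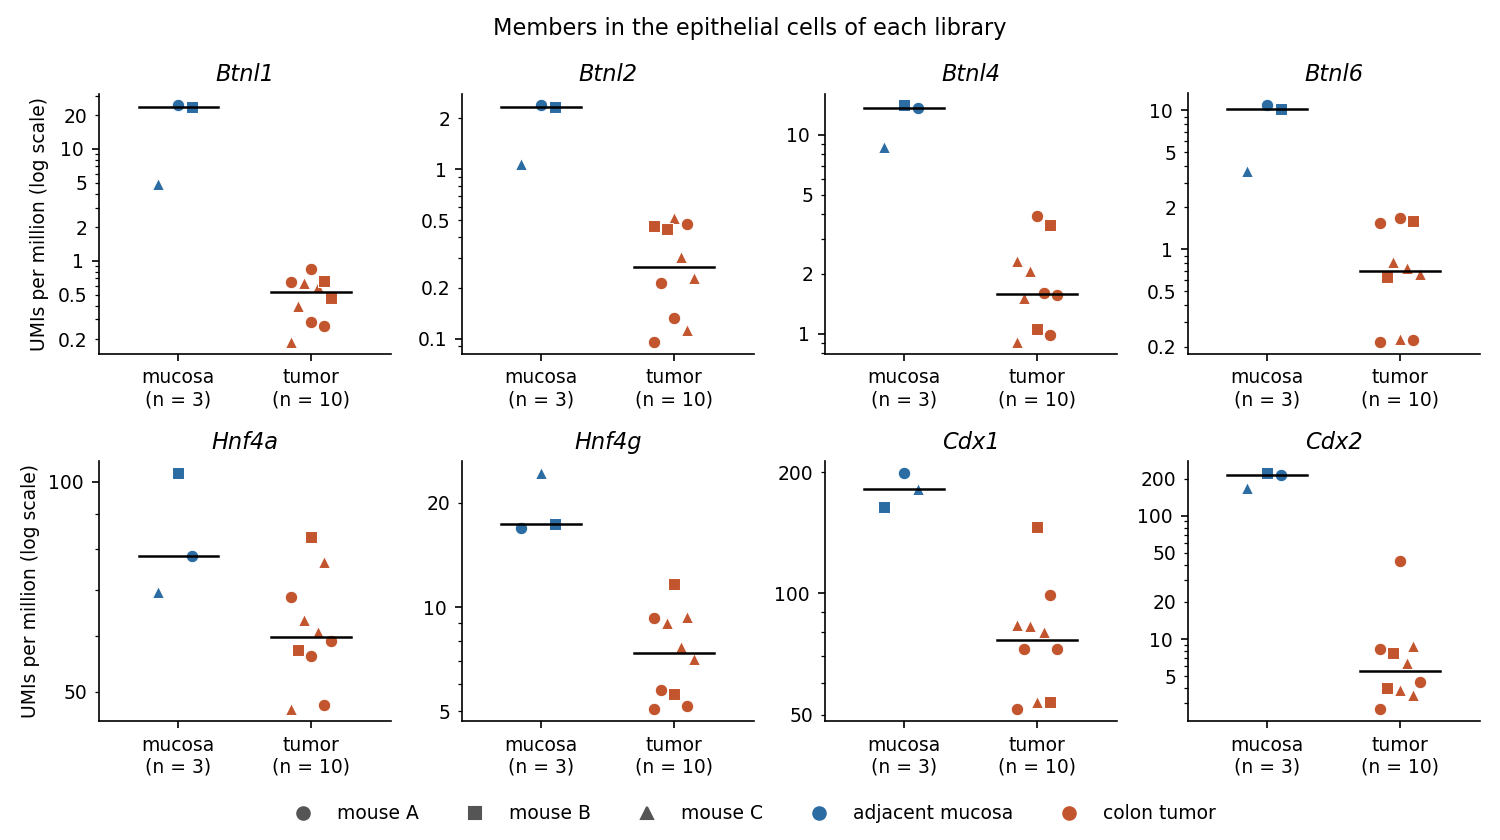
Level of each of the 8 genes in the epithelial cells of each library, in CPM on a log scale that differs between panels; each point is a library (3 mucosa, 10 tumors), its shape gives the mouse and the black bar the group median. Tumors lie below every mucosa sample in 7 panels, and in the Hnf4a panel tumors 3 and 10 lie within the mucosa range.

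All 8 genes were thus called lower in tumors and 7 of 8 without overlap, counts that include Btnl2 with its tumor sums at or under the neutrophil level, in a comparison in which 64.4% of the 15528 genes tested changed. Of all genes tested 30.3% were lower and 34.0% higher in tumors, 12.8% had every tumor below every mucosa sample and 33.7% every tumor above. Counted from the largest fall, Btnl1 stood at place 47 of 15528, Cdx2 at 75, Btnl6 at 209, Btnl4 at 339, Hnf4g at 942, Cdx1 at 1126 and Hnf4a at 2981, and no place is given for Btnl2, whose tumor sums are not read as expression. Of the other butyrophilin genes of mouse, Btn1a1, known from milk fat secretion, stood at 0.386 to 0.568 CPM in mucosa and 0.0305 to 0.335 CPM in tumors. It held 1 to 12 UMIs per tumor and passed the filter on low counts through mucosa, so its values are given with no test. Btn2a2, Btnl9, Btnl10 and Ermap held at most 28 UMIs in either group and were not tested.

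Lists of leukocyte and dissociation stress genes moved with the same comparison, and their part in it was not tested. The summed level of 8 leukocyte genes in the epithelial cells was 181 to 880 CPM in tumors and 16.5 to 32.5 CPM in mucosa, with 6 of the 8 higher, of which S100a9 and Lyz2 passed the filter on low counts through tumors (S100a9 at 85.6 to 452 CPM in tumors and 0.228 to 8.15 CPM in mucosa), while the T cell gene Cd3e was at 0.0846 to 0.455 CPM in tumors and 0.244 to 0.605 CPM in mucosa and Ptprc did not pass at 0.46 (adjusted p = 0.286; edgeR). The summed level of 10 dissociation stress genes was 1687 to 4347 CPM in tumors and 785 to 922 CPM in mucosa, with 9 of 10 higher (Hspa1a by 4.21, Atf3 by 3.75 on the log2 scale). Scaled by library totals alone, the median of all genes moved from 0.04 to 0.32 and lower genes made up 30.2% of the called genes in place of 47.1%, while all 8 genes stayed lower and called.

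The falls were also counted in single cells. At least 1 Btnl1 UMI was found in 8.44 to 21.2% of epithelial cells per mucosa sample (2629 of 15356) and in 0.240 to 1.17% per tumor (127 of 17572), at median depths of 12002 and 11260 UMIs. With every cell thinned to 2000 UMIs (14499 mucosa and 16203 tumor cells were deep enough), the shares were 0.730 to 4.96% and 0 to 0.252%. Outside the epithelium, tumor neutrophils gave 0 of 26824 cells at a median of 2599 UMIs, while tumor B cells held 6 Btnl1 UMIs in 4547 cells, at 0 to 0.960 CPM per tumor with a mean of 0.152 CPM. Immune cells together stood at 0.0633 CPM in tumors and 0.836 CPM in mucosa, so part of the low tumor level of Btnl1 cannot be told apart from RNA found outside epithelial cells. Cdx2 UMIs were found in 66.6 to 81.7% of mucosa cells and 2.88 to 23.1% of tumor cells, and after thinning in 26.9 to 31.7% and 0.198 to 5.21%. Both genes were thus found in fewer tumor than mucosa cells at equal depth, with no overlap between libraries.

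Within each mouse the tumors of that mouse were set against its own mucosa. Btnl1 was 48.3, 41.7 and 10.9 times as high in mucosa as in the mean tumor of mouse A, B and C, and Cdx2 14.6, 38.5 and 29.95 times. For 7 of the 8 genes every tumor lay below the mucosa of its own mouse, and for Hnf4a 9 of 10 tumors did, the exception being tumor 3 of mouse C. With the mouse as a block in the edgeR fit, all 8 genes stayed lower, with values from -5.18 for Btnl1 to -0.65 for Hnf4a. Among the tumors alone none of the 8 genes differed between the mice (lowest edgeR adjusted p = 0.437, for Hnf4g, and lowest unadjusted p = 0.190), where 0.502% of 15341 genes did.

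The make-up of the epithelium differed between the tissues and between mucosa samples. Absorptive-like cells, the colonocytes that take up water and short-chain fatty acids, made up 6.00, 24.5 and 21.5% of epithelial cells in mucosa 1, 2 and 3 and 0 to 10.1% with a median of 3.16% in the tumors. Goblet-like cells, which secrete mucin, made up 50.3, 23.7 and 21.1% in mucosa and 0.392 to 6.74% in the tumors. Mucosa 1, which had the lowest Btnl1, Btnl2, Btnl4 and Btnl6 levels, thus also had the fewest absorptive-like and the most goblet-like cells. The comparison was therefore repeated within cell classes, using only libraries in which the class had 20 cells or more. Cells were grouped without the 8 genes, and classes were named from marker genes. The share of all genes without overlap was counted only over all epithelial cells. Values without overlap within a class or cluster therefore have no such share beside them.

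In absorptive-like cells (7 tumors and 3 mucosa samples), Cdx2 was far lower in tumors and Btnl1 values did not overlap, while Hnf4a and Hnf4g did not pass the test. Btnl1 stood at 40.6, 70.5 and 76.6 CPM in mucosa 1, 2 and 3 and at 1.38 to 9.41 CPM with a median of 2.64 in the tumors, from 1 to 6 UMIs per tumor. Btnl1 passed the filter on low counts there through mucosa, so its values are given with no test. Cdx2 stood at 171, 219 and 215 CPM in mucosa and at 1.38 to 32.9 CPM with a median of 14.96 in the tumors. Neither gene overlapped between the groups, and the fold change of Cdx2 was -3.65 ± 0.43 (edgeR, adjusted p = 9.12e-05), in a comparison in which 26.4% of 7468 genes changed and 12.9% were lower. Btnl4 (-0.84 ± 0.23, adjusted p = 0.0180), Btnl6 (-1.29 ± 0.41, adjusted p = 0.0333) and Cdx1 (-0.91 ± 0.27, adjusted p = 0.0253) were lower by smaller steps. Without mucosa 3, Btnl4 (-0.87, adjusted p = 0.0604), Btnl6 (-1.25, adjusted p = 0.112) and Cdx1 (-0.89, adjusted p = 0.0910) did not pass. Btnl6 also failed without mucosa 2 (adjusted p = 0.112) or any of tumors 2, 8, 9 and 10 (adjusted p from 0.0563 to 0.0685), and Cdx1 without mucosa 2 (adjusted p = 0.142).

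Hnf4a in absorptive-like cells stood at 245, 138 and 197 CPM in mucosa 1, 2 and 3 and at 130 to 259 CPM with a median of 182 in the tumors. The groups overlapped fully, and the difference was -0.03 with a 95% interval of -0.59 to 0.54 (edgeR, adjusted p = 0.959). Hnf4g stood at 13.9, 14.6 and 10.9 CPM in mucosa and at 4.14 to 17.3 CPM in the tumors (-0.29, interval -0.89 to 0.32, adjusted p = 0.541). Neither interval reached the value of the same gene over all epithelial cells, -0.70 for Hnf4a and -1.63 for Hnf4g, and the difference between the cell sets was not tested. Btnl2, with 35 tumor UMIs, was not tested, and its tumor values of 1.57 to 12.7 CPM overlapped the mucosa values of 6.41 to 8.61 CPM.

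Most absorptive-like cells of mucosa, 2205 of 3130, came from a cluster led by Cyp2c55 that held 1 tumor cell, while 619 of the 620 tumor cells came from a cluster led by Ly6m and Saa1 that also held 925 mucosa cells. Mucosa 1 differed, with 6 of its 153 absorptive-like cells in the Cyp2c55 cluster. Within the shared Ly6m cluster alone, Btnl1 stood at 23.7 to 41.3 CPM in mucosa and 1.38 to 9.41 CPM in tumors, without overlap and with no test for the same reason. Cdx2 was -3.37 ± 0.44 (edgeR, adjusted p = 3.80e-04) and Btnl4 -0.75 ± 0.24 (adjusted p = 0.0479), where 18.3% of 7358 genes changed, 8.97% lower and 9.32% higher. Btnl6 (-0.95, adjusted p = 0.114), Cdx1 (-0.54, adjusted p = 0.176), Hnf4a (-0.11, adjusted p = 0.826) and Hnf4g (-0.08, adjusted p = 0.895) did not pass. Cdx2 thus also fell between cells of the same cluster.

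Another cluster held in both tissues, led by Gsdmc4, Defb45 and Wfdc2 and given no class name, had 1470 tumor and 473 mucosa cells (10 tumors and 2 mucosa samples with enough cells). There Btnl1 stood at 7.80 and 10.2 CPM in mucosa 2 and 3 and at 0.795 to 5.13 CPM in the tumors, without overlap, for a fold change of -1.92 ± 0.44 (edgeR, adjusted p = 0.0164; 10.2% of 10721 genes changed, 5.20% lower and 5.05% higher). Btnl4 was lower (-0.88 ± 0.27, adjusted p = 0.0487), and Hnf4a was higher at 90.8 to 132 CPM in the tumors against 70.6 and 83.9 CPM in mucosa (0.49 ± 0.15, adjusted p = 0.0497). Btnl6 (-1.31, adjusted p = 0.0715), Cdx2 (-1.08, adjusted p = 0.235), Hnf4g (-0.39, adjusted p = 0.262) and Cdx1 (0.05, adjusted p = 0.871) did not pass. Hnf4a therefore pointed up in this cluster and down over all epithelial cells, which was again not tested as a difference.

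Goblet-like cells were compared in 9 tumors and 3 mucosa samples. Of the mucosa cells 3055 of 4169 lay in a cluster led by Retnlb and Muc2, and of the tumor cells 283 of 480 in a cluster led by Zg16 and Clca1, so the class held different clusters in the tissues. Cdx2 stood at 142, 129 and 140 CPM in mucosa and at 8.99 to 91.5 CPM with a median of 28.3 in the tumors, without overlap (-1.77 ± 0.34, edgeR adjusted p = 0.00368; 10.9% of 7501 genes changed and 3.39% were lower). Hnf4a stood at 51.7, 46.7 and 59.7 CPM in mucosa and at 41.5 to 106 CPM with a median of 83.3 in the tumors, 7 of which lay above every mucosa sample. It was higher by 0.74 ± 0.20 (edgeR, adjusted p = 0.0278; 7.51% of genes were higher), a call that was lost without any 1 of the mucosa samples (adjusted p from 0.0864 to 0.1505). In mucosa alone Hnf4a was 48.2 CPM in the Retnlb cluster and 68.8 CPM in the Zg16 cluster. Within the Retnlb cluster, Hnf4a stood at 56.94 to 75.25 CPM in 3 tumors and 42.3 to 52.04 CPM in mucosa, without overlap. Within the Zg16 cluster 5 tumors (53.8 to 165 CPM) overlapped mucosa (57.1 to 79.5 CPM). Only tumors with enough cells of a cluster are counted here. How much of the class value came from the mix of clusters was not tested. Cdx2 did not overlap within either cluster, at 27.2 to 105 CPM in tumors and 140 to 164 CPM in mucosa in the Retnlb cluster, and 18.5 to 49.1 and 72.7 to 157 CPM in the Zg16 cluster. Cdx1 (0.12 ± 0.14, adjusted p = 0.598) and Hnf4g (0.05 ± 0.27, adjusted p = 0.931) did not pass. The 4 Btnl genes had too few UMIs for the test, with 13 Btnl1, 2 Btnl2, 42 Btnl4 and 16 Btnl6 UMIs in tumor goblet-like cells, and their tumor values overlapped those of mucosa.

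**Figure D2:**
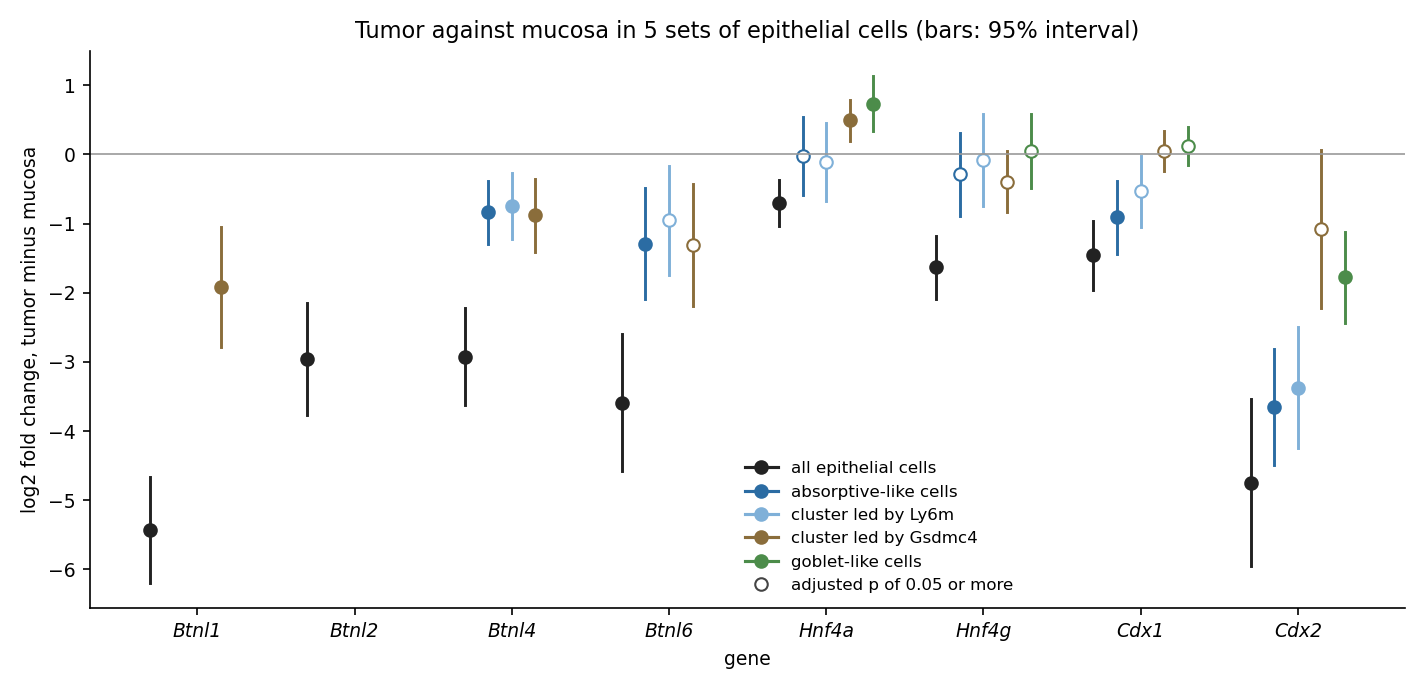
Log2 fold change (tumor minus mucosa) of each gene with its 95% interval in 5 sets of epithelial cells, from the fit across all genes in each set; open points did not pass an adjusted p of 0.05, and a missing point has no test; the point of Btnl2 rests on tumor sums at or under the neutrophil level. Btnl1 lies below 0 in both sets shown for it and Cdx2 in all 5, while Hnf4a lies below 0 over all epithelial cells and above 0 in goblet-like cells and in the cluster led by Gsdmc4.

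The clusters, each split by tissue where at least 200 cells were at hand, gave 17 points over which the genes' levels were ordered. They share libraries, and cluster levels are sums over all cells of a tissue, so they are given as a description. Btnl1 was highest at 88.6 CPM in the mucosal absorptive-like cluster led by Cyp2c55, followed by 32.8 CPM in a mucosal cluster led by Apol10a and Hao2 and 31.4 CPM in the mucosal cells of the Ly6m cluster, and it was 2.59 CPM in the tumor cells of that cluster. Mucosa 1 gave 6 cells of the Cyp2c55 cluster against 1307 and 892 from mucosa 2 and 3, so the 88.6 CPM rests almost wholly on mucosa 2 and 3. The order of the Apol10a and Ly6m clusters did not hold by library, where means were 30.8 CPM (22.3 to 35.4) and 32.9 CPM (23.7 to 41.3) and the ranges overlapped. The next mucosal values were 8.75, 7.88 and 7.82 CPM in the clusters led by Gsdmc4, Aldh1b1 and Zg16. In the tumor epithelial-like cluster led by Mt4 and Spock2, the largest tumor cluster with 5772 cells, the 4 Btnl genes together held few UMIs, at 0.0184, 0.00922, 0.0369 and 0.00922 CPM for Btnl1, Btnl2, Btnl4 and Btnl6. Btnl1 was therefore highest in mucosal absorptive-like cells and near 0 in the clusters that hold most tumor cells.

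The transcription factors ordered the clusters differently. Hnf4a was highest in absorptive-like cells of both tissues, at 184 CPM in mucosal and 174 CPM in tumor cells of the Ly6m cluster, and lowest at 34.3 CPM in the tumor cluster led by Mt4. Hnf4g and Cdx2 were highest in the mucosal cluster led by Apol10a, at 28.3 and 331 CPM, and Cdx2 fell to 0.507 CPM in the Mt4 cluster. Cdx1 was highest at 237 CPM in the tumor cells of the Gsdmc4 cluster, where Cdx2 was 30.4 CPM. These are pooled values: per library in the Gsdmc4 cluster, Cdx1 was 187 to 274 CPM in tumors and 184 and 254 CPM in mucosa, Cdx2 was 11.1 to 119 CPM and 56.4 and 88.2 CPM, and neither passed the test.

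**Figure D3:**
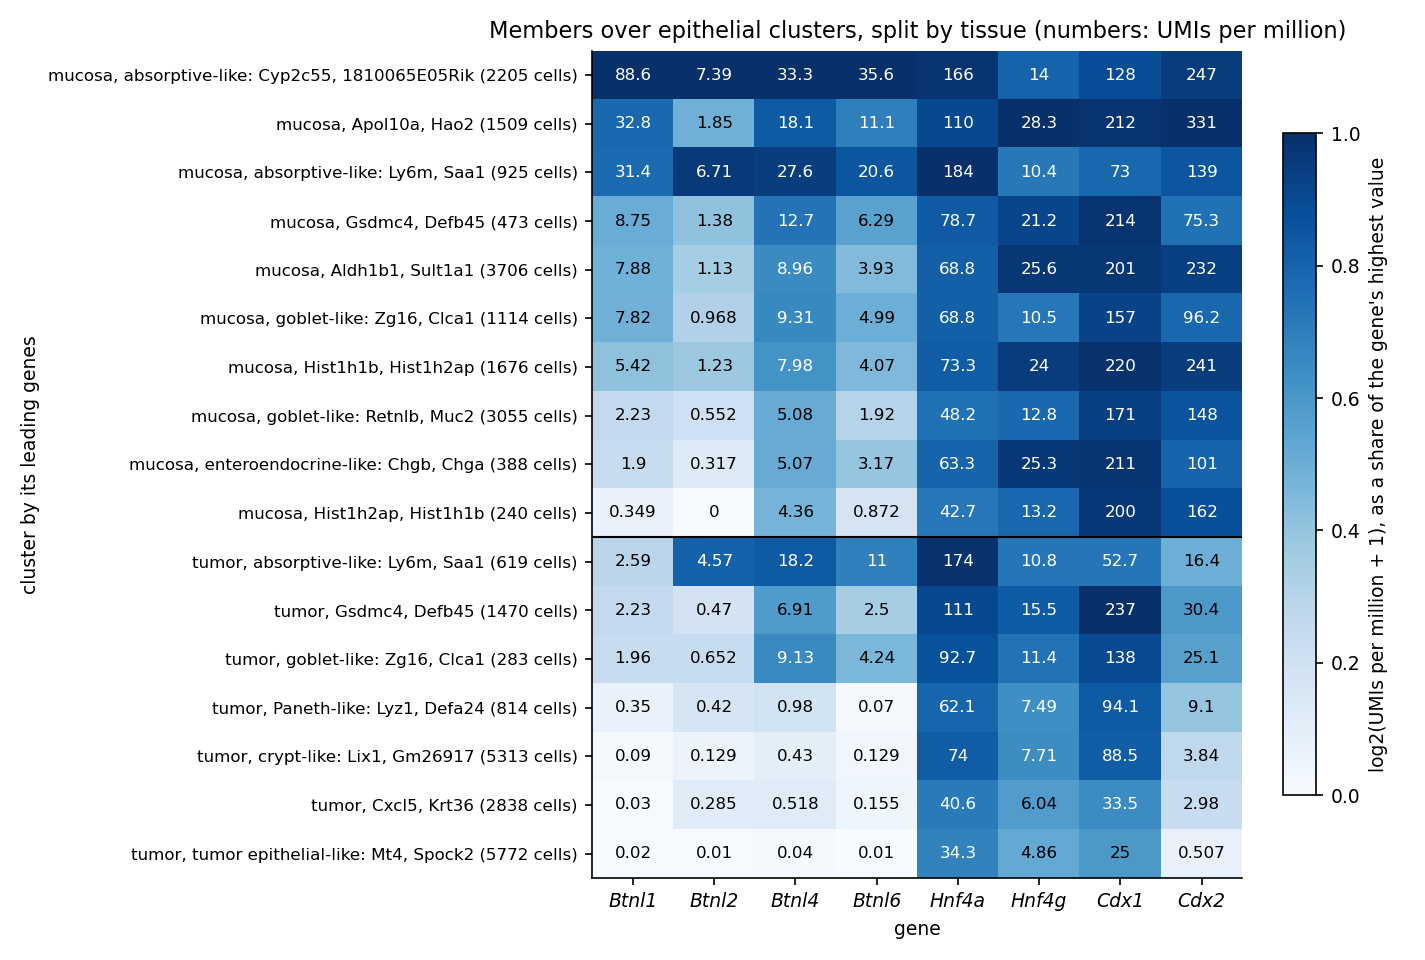
Level of each gene (columns) in 17 epithelial clusters split by tissue (rows, mucosa above the line and tumor below it, named by their leading genes); the printed number is CPM and the shade is log2(CPM + 1) as a share of the gene's highest value. Btnl1 falls from 88.6 in the mucosal cluster led by Cyp2c55 to 0.02 in the tumor cluster led by Mt4, while Hnf4a spans 34.3 to 184.

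Over these 17 points and on the log2(CPM + 1) scale, Btnl4 and Btnl6 were the most alike pair (Pearson r = 0.964), a pair whose counts may be shared, followed by Btnl1 and Btnl6 (0.923). With Btnl1, the factors gave r = 0.727 for Cdx2, 0.709 for Hnf4a, 0.529 for Hnf4g and 0.365 for Cdx1. For the other Btnl genes Hnf4a stood above Cdx2, at 0.866 against 0.447 for Btnl2, 0.799 against 0.777 for Btnl4 and 0.839 against 0.676 for Btnl6. Btnl2 held 1 to 37 UMIs at the tumor points, so its r rests on few counts. Hnf4g was closest to Cdx1 (0.841) and Cdx2 (0.822). The genes with the pattern most like Btnl1 over the same points were Apol10a (0.957), Dpep1 (0.953), 1810065E05Rik (0.953), Hsd3b3 (0.952) and Selenbp1 (0.946), and those most like Hnf4g were Pyroxd2 (0.943), Foxd2os (0.939), Nr5a2 (0.927), Akap7 (0.924) and Pkdcc (0.918). The butyrophilin-like genes and the HNF4 and CDX factors were left out of these rankings, so their absence from them is not a result. The genes named for Btnl1 were picked for the highest r among all genes tested. They are therefore no measure for the r of the factors with Btnl1 (0.365 to 0.727), whose place among all genes was not counted.

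Genes linked to the same factors were followed by lists in the epithelial cells of all 13 libraries. Of 20 HNF4-linked brush border and lipid genes, 18 were lower and 2 higher in tumors, with a median log2 fold change of -1.61 against 0.04 over all genes tested, of which 30.3% were lower and 34.0% higher. The 18 include Fabp1, at 0 to 0.0867 CPM in tumors and 0.326 to 0.693 CPM in mucosa, which passed the filter on low counts through mucosa. Fabp2, a fatty acid carrier of enterocytes, fell by 6.10. Mttp, which loads lipoproteins, rose by 1.19 (4.13 to 11.2 CPM in tumors, 2.09 to 2.90 CPM in mucosa), and Myo7b, a brush border motor, rose by 0.24. All 12 CDX-linked intestinal genes were lower, with a median of -2.31, led by Isx, an intestinal homeobox factor, at -4.15 and Abcb1a, a drug exporter, at -3.87, and under scaling by library totals 10 of 12 were and 2 did not pass. Both lists thus moved mostly in the direction of the 8 genes, and which factor acts on which gene was not measured.

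Of 22 other intestinal transcription factors tested, 10 were lower, 5 higher (4 without Onecut2, which passed the filter on low counts through tumors) and 7 not called, with a median of -0.52, and under scaling by library totals 9 were lower and 6 higher. Over all genes 30.3% were lower and 34.0% higher, so both directions were common. Atoh1, the factor of secretory cells, was at -3.88 and Ppara, a nuclear receptor of fat oxidation, at -3.30, while Onecut2 stood at 39.1 to 270 CPM in tumors and at most 0.0932 CPM in mucosa, too near 0 for a fold, and Prdm1, a factor of the immature gut, rose by 2.27. Of 12 Wnt and beta-catenin targets 10 were higher and none lower, with a median of 2.59. Notum, a Wnt inhibitor, stood at 21.7 to 122 CPM in tumors and 0.114 to 0.185 CPM in mucosa, and Lef1, a partner of beta-catenin, at 8.30 to 40.0 and 0.0494 to 0.147 CPM, both too low in mucosa for a fold and passing the filter through tumors, so that 8 of the 10 passed it in both tissues. The 8 genes thus moved opposite to the Wnt targets that passed the test.

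Of 14 epithelial genes that act on intraepithelial lymphocytes, 5 were lower, 3 higher and 6 not called (median -0.34), and under scaling by library totals 4 were lower and 4 higher. H2-T3, which encodes the TL antigen bound by CD8 alpha homodimers, stood at 9.70 to 40.1 CPM in mucosa and at 0 to 2.17 CPM in tumors, a gene that passed the filter through mucosa and is given with no test, so that 4 of the 5 lower genes passed it in both tissues. Tslp was lower at -1.76, and Cxcl16 (2.92) and Ulbp1 (1.14) were higher. Il15, the cytokine on which these lymphocytes depend, did not pass at -0.15 (adjusted p = 0.693), and its receptor chain Il15ra was lower at -1.50, both named after their values were seen. These counts lie near the shares over all genes and are not read as a property of the list.

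The T cells that the Btnl1 and Btnl6 pair is known to act on were counted in the same libraries. A T cell here is a retained cell of an immune cluster with at least 1 UMI of Cd3d, Cd3e or Cd3g, and it is called Trdc+ with at least 1 UMI of Trdc, the delta chain constant gene. Trdc+ T cells made up 7.79% (95% Wilson interval 7.07 to 8.57), 3.55% (3.20 to 3.95) and 5.66% (5.19 to 6.18) of retained cells in mucosa 1, 2 and 3, and 0.273 to 1.02% with a median of 0.685% in the tumors. Every tumor lay below the mucosa of its own mouse, and the difference of -5.05 percentage points had p = 0.0133 by an exact permutation of libraries within mice (75 arrangements, two-sided, adjusted p = 0.0178 over 4 measures), the smallest p this design can give. Mucosa 1 had the highest share of Trdc+ T cells and the lowest Btnl1 level of the 3 mucosa samples.

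Shares of retained cells depend on the other cells present, and neutrophils alone were 26824 of 85953 retained cells in tumors and 42 of 22542 in mucosa. Among T cells, 24.4 to 27.9% were Trdc+ in mucosa and 4.09 to 15.03% in tumors (difference -18.4 points, exact p = 0.0133, adjusted p = 0.0178). Per 100 epithelial cells there were 4.56 to 15.03 Trdc+ T cells in mucosa and 1.18 to 5.92 in tumors, with 9 of 10 tumors below their own mucosa (exact p = 0.0267, adjusted p = 0.0267). T cells with a UMI of Tcrg-V7, the chain of gut intraepithelial gamma delta cells, made up 0.404 to 2.18% of retained cells in mucosa (266 cells) and 0.0102 to 0.122% in tumors (28 cells; exact p = 0.0133, adjusted p = 0.0178). The share was lower in tumors on all 4 measures. T cells of tumors were deeper than those of mucosa (median 3597 against 1870 UMIs), and with cells thinned to 1000 UMIs the difference was -3.55 points, with 10 of 10 tumors below. Neutrophils had a Trdc UMI in 0.0596% of cells.

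Where the Trdc+ T cells lay among the clusters differed by tissue. In mucosa 1090 of 1183 (92.1%; 90.6 to 93.8% per library) lay in a cluster led by Gzma, Cd7 and Cd160, genes of cytotoxic intraepithelial lymphocytes, and in tumors 119 of 556 (21.4%; 3.23 to 38.2% per library). In tumors 326 (58.6%) lay in a cluster led by Il17a and Icos, which held 59 of mucosa (4.99%). As a share of retained cells the Il17a cluster's Trdc+ T cells were 0.192 to 0.447% in mucosa and 0.181 to 0.652% in tumors, a difference of 0.0736 points (exact permutation p = 0.453). Those of the Gzma cluster were 3.26 to 7.06% in mucosa and 0.0119 to 0.304% in tumors, a difference of -5.07 points. Since this cluster held 1090 of the 1183 mucosal cells, its difference largely repeats that of all Trdc+ T cells, and no separate test is given. Counted only in clusters that met the rule for the T cell name, which leaves out the shallow Gzma cluster, the difference was -0.0194 points (exact p = 0.813).

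Within Trdc+ T cells the gamma chain genes followed the same split. Tcrg-V7 stood at 56.1 to 85.6 CPM in mucosa and 0 to 15.2 CPM in tumors, and Tcrg-C1 at 771 to 816 and 208 to 547 CPM. Cd160 stood at 826 to 881 CPM in mucosa and 34.8 to 182 CPM in tumors, Cd8a at 509 to 689 and 13.9 to 241 CPM, and Itgae, the integrin that binds E-cadherin, at 160 to 351 and 36.3 to 174 CPM. Tcrg-V7, Tcrg-C1, Cd160 and Cd8a did not overlap between the tissues and Itgae did, while Cd8b1 overlapped at 3.19 to 12.2 CPM in mucosa and 0 to 34.8 CPM in tumors. Trdc itself stood at 1084 to 1271 CPM in mucosa and 1228 to 3095 CPM in tumors. Gzma (9462 to 18145 and 390 to 15679 CPM), Gzmb (1430 to 2477 and 482 to 4221 CPM) and Trdv2-2 (6.11 to 12.85 and 0 to 11.4 CPM) also overlapped. Tcrg-C2, Cd3e, Tyrobp and Fcer1g were lower in tumors without overlap. Over all cells of a library, Trdc overlapped at 9.27 to 24.0 CPM in mucosa and 4.66 to 22.9 CPM in tumors. No test was run on these levels, and Gzma and Cd160 also lead the cluster that holds most mucosal cells. The share of all genes without overlap was not counted in Trdc+ T cells, whose clusters differed between the tissues.

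**Figure D4:**
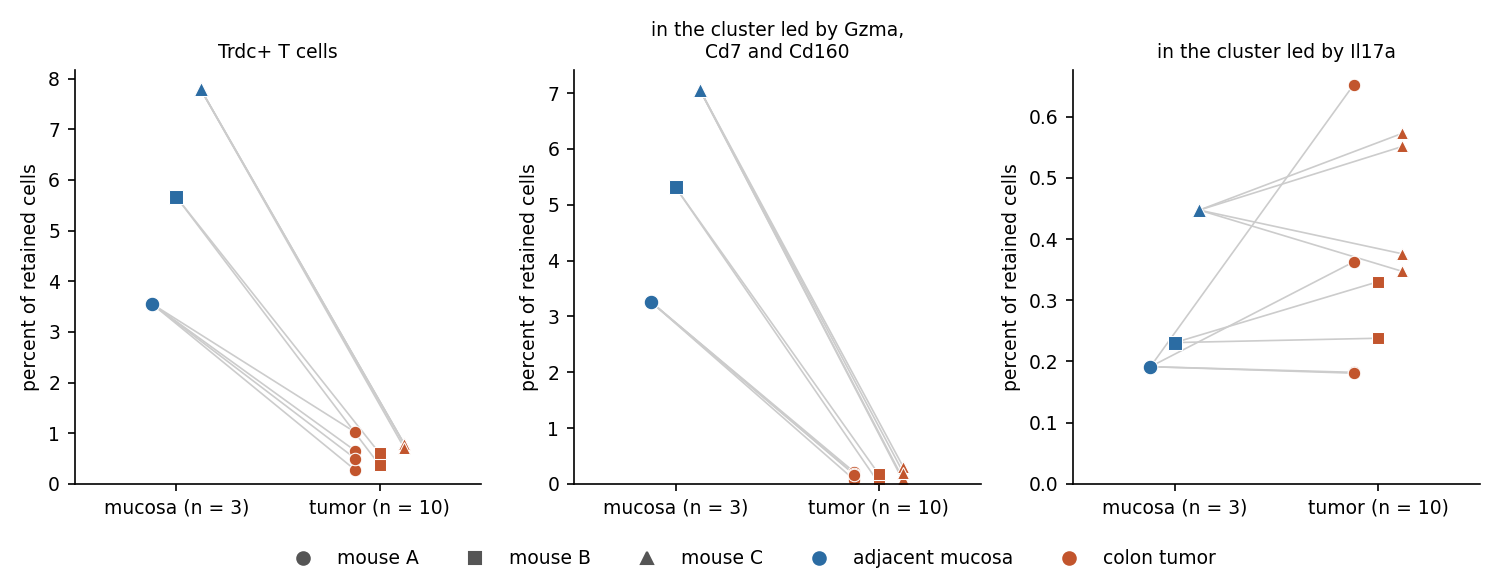
Trdc+ T cells as a percent of retained cells in each library, in all clusters (left), in the cluster led by Gzma, Cd7 and Cd160 (middle) and in the cluster led by Il17a (right); each point is a library, lines join a tumor to the mucosa of its own mouse, and the 3 vertical axes differ. Tumors lie below their own mucosa in the left panel (0.273 to 1.02% against 3.55 to 7.79%) and in the middle panel, and on both sides of it in the right panel.

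Across the 10 tumors, levels of the Btnl genes in epithelial cells were compared with the share of Trdc+ T cells, for the 3 genes with enough UMIs. For Btnl1, Pearson's r was -0.196 (p = 0.672) and Spearman's rho -0.394 (p = 0.355), by permutation of tumors within mice. For Btnl4, r was 0.226 (permutation p = 0.561) and rho -0.0182 (permutation p = 0.982), and for Btnl6, r was -0.170 (permutation p = 0.705) and rho -0.261 (permutation p = 0.628). The adjusted p of r was 0.705 for all 3 relations. Without the 2 tumors farthest from the median level, r was 0.474, 0.448 and -0.395, so the sign for Btnl1 rested on tumors 1 and 8. No relation was detectable among tumors that held 5 to 25 Btnl1 UMIs each, and Btnl2, with 3 to 17 UMIs, was not tested.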

How the data were processed

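The authors aligned the reads of 10x Genomics 3′ libraries (v3.1 chemistry) with Cell Ranger and deposited UMI counts per gene and barcode, whole numbers with no normalization. The submitters' processing notes name Cell Ranger 6.0.0 and mm10. The 8 genes, the lists and the tests were chosen with earlier results of these data known.

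Barcodes with at least 500 UMIs, 200 genes and at most 25% mitochondrial UMIs were kept, and doublets were removed by a score against simulated doublets at 0.8% per 1000 cells (10397 cells), which left 108495 of 137591. Cells were clustered by Leiden (leidenalg 0.10.2, scikit-learn 1.9.0, Python 3.11.15; 2000 variable genes, 30 components, 20 neighbors, resolution 1) without the 8 genes, other butyrophilins, gamma and delta receptor genes and sex-linked genes, which gave 38 clusters, 14 of them epithelial. Classes rebuilt from markers may differ from those of the study.

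Counts of a gene were summed per library and cell set and tested with edgeR's quasi-likelihood test (4.0.16, R 4.3.3, TMM scaling, filterByExpr) with Benjamini-Hochberg adjustment over all genes tested, and a call is an adjusted p under 0.05. Libraries with fewer than 20 cells of a class were left out. The 95% intervals of fold changes are normal intervals from the SE. Tumors of 1 mouse are not independent animals, so p-values over libraries also measure spread within 3 mice. Shares of T cells were tested by exact permutation within mice. Wilson intervals cover counting error only.

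Sample numbers do not mark a shared animal, so pairing was taken from the mouse in the labels: deviations of tumors and of their own mucosa correlated at 0.147, 0.145 and 0.232 in mice A, B and C over 11661 genes, and between mice at -0.282 to 0.22 (tumors of B with mucosa of A highest), so the pairing rests on the shared animal and not on these values. The code was tested on simulated data with known changes. Genes named from each list were those with the largest 2 rises and 2 falls among called genes, beside all butyrophilins, the T cell genes and the 5 genes most like Btnl1 and Hnf4g over clusters. 1 gene named by this rule is not reported here. Alternatives were DESeq2 1.42.0, other scalings, filters, doublets kept, thinning, the mouse as a block, a per-cell epithelial gate and leaving out each library or mouse. Single-cluster fits, the libraries not labelled female and the narrower T cell definitions were chosen after seeing the data.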

Additional observations from a re-analysis of the deposited data

Results flagged for a closer look

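In 8 of 28 series of tumor values checked, 1 tumor stood apart from the others by Dixon's criterion, which independent normal values meet in about 1 of 20. These series share tumors and several rest on few UMIs, so that rate cannot be set against the 8 of 28. Tumor 10 held 146 CPM of Cdx1 in epithelial cells, with the next tumor at 99 CPM, and tumor 6 held 43.3 CPM of Cdx2, with the next at 8.72 CPM. Of the tumors, tumor 10 also had the largest share of epithelial cells in the Gsdmc4 cluster (24.1%, next 11.2%). Tumor 6 had the largest in the Aldh1b1 cluster (4.19%, next 0.332%), and the part of these shares was not tested. In absorptive-like cells tumor 3 held 9.41 CPM of Btnl1 (next 2.83 CPM) and tumor 9 held 12.7 CPM of Btnl2 (next 4.95 CPM). In goblet-like cells tumor 3 held 1 CPM of Btnl2, where the other tumors held 0, and tumor 7 held 11.2 CPM of Btnl6 (next 5.32 CPM). All 4 of these class values rest on few UMIs. Trdc+ cells made up 15% of the T cells of tumor 3, with the next tumor at 9.75%, and T cells with a Tcrg-V7 UMI made up 0.122% of the retained cells of tumor 8, with the next at 0.0448%.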

How the results depend on the processing

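Over all epithelial cells the 8 genes kept their direction under every filter, scaling and tool tried and without any 1 library or mouse. All passed the test in these fits, except that Btnl2, whose tumor sums lie at or under the neutrophil level, was not tested after thinning. Without the 7 libraries labelled female, whose Y-linked RNA was like that of the others, Hnf4a was at -0.71 and no call is read. Leaving out those 7 left 5 tumors against mucosa 2 alone, without the low mucosa 1, and the lone mucosa sample is assumed to vary like the tumors. Leaving out a library or mouse gave -5.87 to -5.09 for Btnl1, -0.83 to -0.54 for Hnf4a and -5.46 to -4.53 for Cdx2, whose fold moved by over 1.5 times without tumor 6 (-5.46), without mouse A (-5.34) and against mucosa 2 alone (-5.37). Against mucosa 2 alone Btnl4 (-3.55) and Btnl6 (-4.26) also moved by over 1.5 times, and no fold is given for Btnl2. With the mouse as a replicate block the values were -5.18 for Btnl1, -2.85 for Btnl4, -3.41 for Btnl6, -0.65 for Hnf4a, -1.62 for Hnf4g, -1.45 for Cdx1 and -4.96 for Cdx2. That fit called 10295 genes in place of 9995, and the block changed no call of the 8 genes in any cell set.

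Within single clusters some values did not pass or turned. In the Ly6m cluster these were Btnl6 at -0.95, Hnf4a at -0.11, Hnf4g at -0.0793 and Cdx1 at -0.54, and in the Gsdmc4 cluster Btnl6 at -1.31, Hnf4g at -0.39, Cdx2 at -1.08, Hnf4a at 0.49 and Cdx1 at 0.0478. In absorptive-like cells, leaving out 1 library gave -0.99 to -0.73 for Btnl4, -1.69 to -1.12 for Btnl6, -1.11 to -0.72 for Cdx1 and -0.23 to 0.21 for Hnf4a. In goblet-like cells Hnf4a did not pass with no filter on low counts (0.59), doublets kept (0.47) or at most 10% mitochondrial UMIs (0.60) and ranged from 0.64 to 0.82 without 1 library. There Hnf4g was -0.0819 with no filter, -0.39 with doublets kept and -0.0877 to 0.32 without 1 library, and Cdx1 was -0.0254 with no filter. Hnf4g in goblet-like cells was not tested at most 10% mitochondrial UMIs or without tumor 3.

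The Trdc+ difference was -6.10 to -4.06 points without 1 mouse, with exact p = 0.0667 without mouse A or C, the smallest that 15 arrangements give, and -0.0194 points in the named T cell clusters alone. Without the block by mouse it was -5.02 points (exact p = 0.0035). The relation with the Trdc+ share of T cells was 0.154 for Btnl1 and 0.00134 for Btnl6, and without the 2 farthest tumors 0.474 for Btnl1. The causes of these changes were not tested. Depth limits the Btnl genes most, since tumors held 3 to 17 Btnl2 and 5 to 25 Btnl1 UMIs each.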
